A study of Homo sapiens with 6 samples.

Results

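Serine synthesis and the folate one-carbon cycle were followed through 10 enzyme genes, out of 60483 genes listed in each library. They were PHGDH, PSAT1 and PSPH of the serine pathway, the mitochondrial folate enzymes SHMT2, MTHFD2, MTHFD2L, MTHFD1L and ALDH1L2, and the cytosolic folate enzymes SHMT1 and MTHFD1. The 10 genes were chosen from the known reactions after earlier fold changes of these same libraries had been seen, so their differences between the groups are given as a description and without a p-value. All 10 passed the filter on low counts. RNA sequencing (RNA-seq) was performed on 253J, a line of human bladder cancer cells, with 3 libraries of cells transfected with siRNA against FTO (replicates 4, 5 and 6) and 3 of cells transfected with control siRNA (replicates 1, 2 and 3). FTO encodes a demethylase of N6-methyladenosine in RNA. Both groups shared the line, the culture medium and the passage range, and no other agent is named in the labels, whereas the methods of the study describe short hairpin RNA against FTO. Whether each replicate was a culture of its own is not stated, so p-values cover only how much these samples differed, possibly for technical reasons.

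Serine is made from the glycolytic intermediate 3-phosphoglycerate in a chain of reactions: PHGDH oxidizes it, PSAT1 transfers an amino group from glutamate, and PSPH removes the phosphate. Serine hydroxymethyltransferase, SHMT2 in mitochondria and SHMT1 in the cytosol, then splits serine into glycine and a one-carbon unit carried on tetrahydrofolate. In mitochondria MTHFD2 or MTHFD2L oxidizes the folate-bound unit and MTHFD1L releases it as formate, ALDH1L2 oxidizes it to carbon dioxide, and in the cytosol MTHFD1 alone takes formate back onto folate for purines, thymidylate and methionine. Many genes of the serine and mitochondrial folate arms are known targets of ATF4, the transcription factor of the amino acid response, which binds a composite C/EBP-ATF element.

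Counts per library totalled 13162731 to 15709975 in the FTO-knockdown group and 10991789 to 19891269 in the control group. FTO had 20.2, 20.7 and 15.8 CPM (counts relative to the TMM-scaled library size) in FTO-knockdown replicates 4, 5 and 6, against 31.8, 21.4 and 31.2 CPM in control replicates 1, 2 and 3. Its log2 fold change was -0.57 (SE, the standard error, 0.16, adjusted p = 0.0209, edgeR). The groups did not overlap, but control replicate 2 lay close to the FTO-knockdown libraries, and the call was lost without control replicate 1 (-0.49) or control replicate 3 (-0.49) and with library totals as the only scaling (-0.46). Corrected for length and GC content it was -0.94, and with FTO-knockdown replicate 6 alone -0.83, both called. Replicates 4 and 5 of the FTO-knockdown group stood apart from the other 4 libraries: 10 mesenchymal markers summed to 2131 and 2575 CPM there, to 43.0 CPM in replicate 6, and to 22.6 to 23.4 CPM in the controls. VIM, a mesenchymal filament gene, had 663 and 748 CPM in those 2 libraries and 0.304 CPM in replicate 6, against 0.553 to 1.001 CPM in the controls. The summed epithelial markers (5 genes) were 8477 to 10720 CPM in the FTO-knockdown libraries and 8744 to 10610 CPM in the controls. Of 10 urothelial markers, 7 were under 1 CPM in all 6 libraries, with UPK1B at 0 throughout. PPARG of that list had 55.1 to 70.4 CPM in the FTO-knockdown libraries and 57.8 to 73.3 CPM in the controls. KRT13 had 10.5 to 12.2 CPM and 7.59 to 12.8 CPM in the same order. The list summed to 69.4 to 84.5 CPM in the FTO-knockdown libraries and 68.7 to 88.3 CPM in the controls. The 5 intestinal markers summed to 1022 to 1272 CPM in the FTO-knockdown libraries and 1103 to 1212 CPM in the controls. The markers of urothelium, the bladder lining, were thus mostly at very low levels, with PPARG making up most of their sum. In every library the 5 intestinal markers summed to far more than the 10 urothelial markers, and the reason was not tested. In bulk RNA, fewer cells of a type and less RNA per cell cannot be told apart.

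The promoters were read for the C/EBP-ATF response element, written TGATGNAAN and searched on both strands of a window from 250 bases before to 50 bases after each start site (RefSeq, GRCh38.p14). Windows were found for 7 of the 10 enzyme genes. The element was present in 1 of these 7 genes, MTHFD1L, in 3 of 51 other genes of the pathway with a window (SLC1A4, SLC1A5 and AHCYL2), and in 1215 of all 27305 genes with a window (4.45%). The 4 matches are shown because these genes are described below. Each is written 5′ to 3′ on the strand of its gene, with 10 bases on either side and the match in capitals, and in SLC1A4 and AHCYL2 the capitals hold the reverse complement of the element.
MTHFD1L, chr6:150866347-150866375, plus strand: ccgccggctcTGATGCAATcgcgccgggc
SLC1A4, chr2:64989381-64989409, plus strand: gcggctcccgTTTGCATCAtctccagccg
SLC1A5, chr19:46784893-46784921, minus strand: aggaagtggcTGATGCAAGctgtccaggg
AHCYL2, chr7:129368232-129368260, plus strand: ggtgcagcacTTTGCATCAgctctgattt
MTHFD1L has 3 annotated start sites around the element, which begins at position -129 or -90 from a start or at base 25 after it. A gene was counted if any of its windows held the element, and MTHFD1L, SLC1A4, SLC1A5 and AHCYL2 each also have a window or windows without it. A match is a description of the letters and not of binding, and its absence from the windows of PHGDH, PSAT1, MTHFD2, MTHFD2L, SHMT1 and MTHFD1 refers to these windows only.

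In FTO-knockdown cells 7 of the 10 enzyme genes were called lower and ALDH1L2 was called higher, and the remaining 2, MTHFD2L and MTHFD1, were past the threshold (adjusted p of 0.05, edgeR's quasi-likelihood test) in neither direction. Among all 14965 genes tested, 17.9% were called lower and 19.5% higher. The median log2 fold change of the 10 genes was -0.74, beside 0.01 over all genes tested. The 7 lower genes had every FTO-knockdown library below every control, as did 25.6% of all genes tested, and ALDH1L2 had every FTO-knockdown library above, as did 25.8%. Since the genes were chosen on this contrast, nothing is read from these shares.

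**Figure D1:**
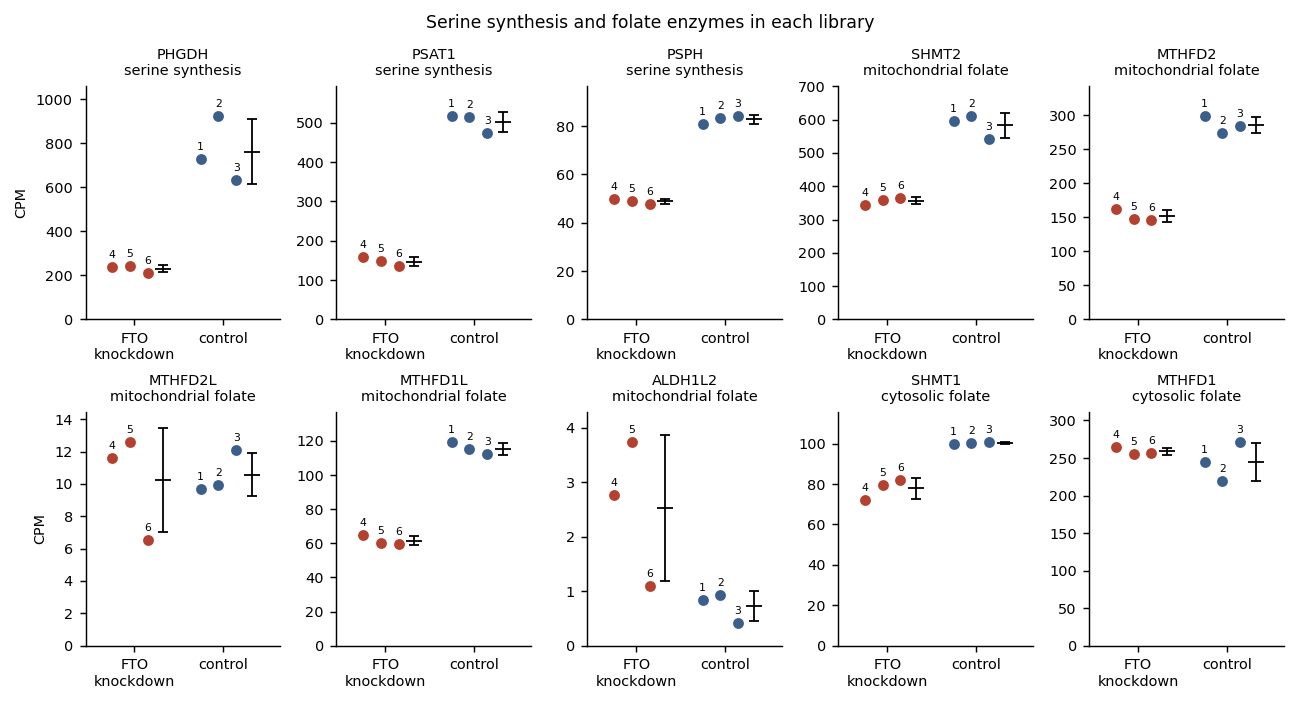
Level of each enzyme gene in every library, in CPM (vertical axes from 0), with FTO knockdown (red, replicates 4, 5 and 6) left of control (blue, replicates 1, 2 and 3), and bars for mean and SD of 3 libraries. The groups are apart for 8 genes and overlap for MTHFD2L and MTHFD1, and the FTO-knockdown points of MTHFD2L and ALDH1L2 spread most relative to their mean, with replicate 6 at 6.56 and 1.09 CPM.

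The serine synthesis arm was lower as a whole, with all 3 genes past the threshold and a median log2 fold change of -1.72. PHGDH (chr1:119648411-119744226, GENCODE 29 on GRCh38), the first and committed step, had 237, 242 and 212 CPM in FTO-knockdown replicates 4, 5 and 6, against 729, 923 and 632 CPM in control replicates 1, 2 and 3. The means were 230.4 ± 16.0 CPM in FTO-knockdown cells and 761 ± 148 CPM in control cells (SD, n = 3 each), a log2 fold change of -1.72 (SE 0.13), or 0.303 times the control level. The controls spread widely, with replicate 2 the highest, yet the lowest control was far above the highest FTO-knockdown library.

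PSAT1 (chr9:78297143-78330093), the aminotransferase, fell by as much. It had 158, 149 and 135 CPM in FTO-knockdown replicates 4, 5 and 6, against 517, 516 and 474 CPM in control replicates 1, 2 and 3. The log2 fold change was -1.77 (SE 0.09), or 0.293 times the control level, and both groups were tight. Ordered from the most negative fold change among 14965 genes, PSAT1 stood at place 31 and PHGDH at place 34. Reads of 4 annotated PSAT1 pseudogenes were listed at 0 in all libraries.

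PSPH (chr7:56011051-56051604), the phosphatase, fell less far. It had 49.7, 49.0 and 47.8 CPM in FTO-knockdown replicates 4, 5 and 6, against 80.7, 83.5 and 84.1 CPM in control replicates 1, 2 and 3, a log2 fold change of -0.76 (SE 0.08). Within a group the libraries differed by little (SD 1.01 CPM in FTO-knockdown cells and 1.82 CPM in control cells). The pseudogene PSPHP1, a partial copy of PSPH, had 73, 65 and 77 counts in FTO-knockdown libraries and 60, 130 and 125 counts in controls, next to 655 to 788 counts of PSPH in FTO-knockdown libraries and 867 to 1627 in controls, so a small part of the PSPH value is uncertain.

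The first steps of serine synthesis therefore fell further than the last. The ratio of PSAT1 to PSPH, in CPM per kilobase of transcript, was 3.15, 3.02 and 2.82 in FTO-knockdown replicates 4, 5 and 6, against 6.38, 6.15 and 5.61 in control replicates 1, 2 and 3. The ratio of PHGDH to PSPH was 4.01, 4.17 and 3.74 in the FTO-knockdown libraries, against 7.61, 9.32 and 6.33 in the controls. Neither ratio overlapped between the groups, and the differences of the log2 ratios were -1.01 and -0.95.

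In the mitochondrial folate arm 3 of 5 genes were lower, 1 was higher and 1 did not pass the threshold, with a median log2 fold change of -0.71. SHMT2 (chr12:57229327-57234935), the mitochondrial serine hydroxymethyltransferase and the most abundant folate enzyme transcript here, had 344, 360 and 364 CPM in FTO-knockdown replicates 4, 5 and 6. The control replicates 1, 2 and 3 had 596, 611 and 542 CPM. The log2 fold change was -0.71 (SE 0.08), with no library out of order.

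MTHFD2 (chr2:74198562-74217565), the mitochondrial methylenetetrahydrofolate dehydrogenase known for its high level in tumors and embryonic tissue, had 162, 148 and 146 CPM in FTO-knockdown replicates 4, 5 and 6, against 299, 275 and 285 CPM in control replicates 1, 2 and 3. The log2 fold change was -0.91 (SE 0.08). MTHFD1L (chr6:150865549-151101887), the mitochondrial formyltetrahydrofolate synthetase, which yields formate, had 65.0, 60.1 and 59.9 CPM in the FTO-knockdown libraries and 119, 115 and 112 CPM in the controls. Its log2 fold change was -0.90 (SE 0.08). These enzymes of consecutive reactions differed in level but not visibly in fold change, at 0.531 and 0.534 times the control level.

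MTHFD2L (chr4:74114174-74303099), the second mitochondrial dehydrogenase, which is known as the form of adult tissue in rodents, did not follow MTHFD2. It had 11.6, 12.6 and 6.56 CPM in FTO-knockdown replicates 4, 5 and 6, against 9.68, 9.91 and 12.1 CPM in control replicates 1, 2 and 3. The groups overlapped, with the lowest library and the highest both in the FTO-knockdown group, and the log2 fold change was -0.05 (SE 0.22). Against the control mean, on the log2 scale, replicates 4 and 5 were 0.14 and 0.26 higher and replicate 6 was -0.68. The fitted value was 0.17 without FTO-knockdown replicate 6, 0.07 without control replicate 3 and 0.07 with library totals as the only scaling, so no direction is given for MTHFD2L. Replicates 4 and 5 are those with mesenchymal transcripts, and the part of these in the result was not tested.

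The ratio of MTHFD2 to MTHFD2L per kilobase was 7.39, 6.21 and 11.7 in FTO-knockdown replicates 4, 5 and 6, against 16.3, 14.6 and 12.4 in control replicates 1, 2 and 3. MTHFD2 stayed the more abundant isozyme in all 6 libraries.

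ALDH1L2 (chr12:105019784-105084577), the mitochondrial 10-formyltetrahydrofolate dehydrogenase, which oxidizes the one-carbon unit to carbon dioxide, was the single gene higher in FTO-knockdown cells. It rested on few reads, with 39, 60 and 15 counts in FTO-knockdown replicates 4, 5 and 6, against 9, 14 and 8 counts in control replicates 1, 2 and 3. In CPM it had 2.76, 3.73 and 1.09 in the FTO-knockdown libraries, against 0.837, 0.938 and 0.413 in the controls, and the groups did not overlap. The log2 fold change was 1.85 (SE 0.47). The call was lost when control replicate 1 (1.91), control replicate 2 (2.07), control replicate 3 (1.5) or FTO-knockdown replicate 5 (1.45) was left out, and with FTO-knockdown replicate 6 alone against the controls (0.64). Again replicates 4 and 5, where mesenchymal markers were high, had the higher levels, and the part of those markers was not tested.

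Its cytosolic counterpart ALDH1L1, outside the 10 genes, was lower. It had 27.6, 29.4 and 31.1 CPM in FTO-knockdown replicates 4, 5 and 6, against 78.6, 82.7 and 63.7 CPM in control replicates 1, 2 and 3, with a log2 fold change of -1.35 (SE 0.11, adjusted p = 0.000113, edgeR). The log2 ratio of ALDH1L2 to ALDH1L1 per kilobase was -4.53, -4.18 and -6.04 in the FTO-knockdown libraries, against -7.76, -7.67 and -8.47 in the controls. ALDH1L1 remained the more abundant transcript in every library, although the distance narrowed by 3.05 on the log2 scale, or by 1.93 in FTO-knockdown replicate 6.

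Of the 2 cytosolic folate enzymes 1 was lower, by less than its mitochondrial counterpart, and 1 did not pass the threshold. SHMT1 (chr17:18327860-18363563), the cytosolic serine hydroxymethyltransferase, had 72.2, 79.5 and 81.9 CPM in FTO-knockdown replicates 4, 5 and 6, against 100, 100.5 and 100.6 CPM in control replicates 1, 2 and 3. The controls were almost identical, and the log2 fold change was -0.37 (SE 0.08). With FTO-knockdown replicate 6 alone against the controls it was -0.29 and no longer called.

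MTHFD1 (chr14:64388031-64463457), the cytosolic trifunctional enzyme, had 264, 256 and 257 CPM in FTO-knockdown replicates 4, 5 and 6, against 245, 219 and 271 CPM in control replicates 1, 2 and 3. The FTO-knockdown libraries lay within the range of the controls, and the log2 fold change of 0.08 (SE 0.09) did not pass the threshold. Corrected for length and GC content of the transcripts it was -0.21, so no direction is given for MTHFD1. Exons of genes on the opposite strand cover exon bases of 6 of the 10 enzyme genes. MTHFD2 shares 1324 exon bases with SLC4A5, SHMT1 shares 196 with SMCR8, and ALDH1L2 shares 145 with C12orf45. MTHFD1 shares 756 with AL122035.2 and 178 with ZBTB25, SHMT2 shares 427 with AC137834.2, and MTHFD2L shares 174 with AC093677.2. The strand setting of the counting is not given in the sources used here, so reads from these stretches cannot be told apart. SMCR8 had 499, 593 and 485 counts in FTO-knockdown libraries and 247, 295 and 443 counts in controls.

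**Figure D2:**
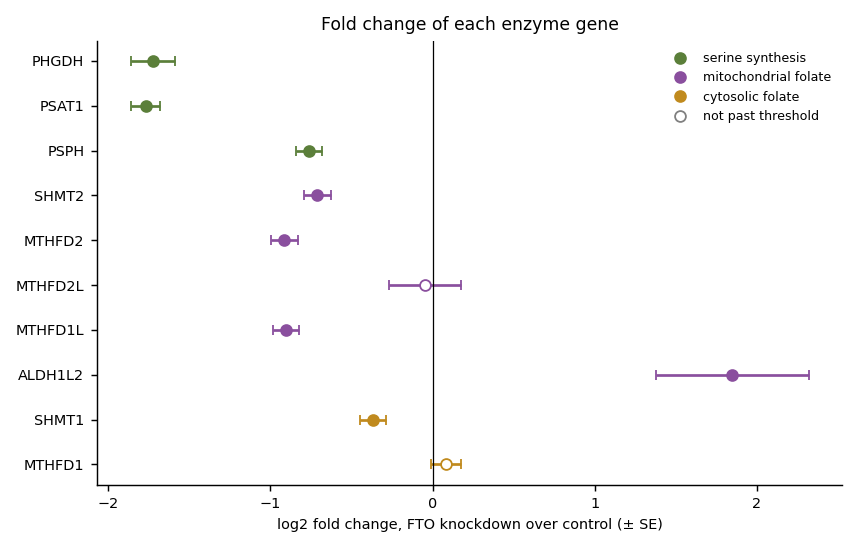
Log2 fold change of each enzyme gene, FTO knockdown over control, with bars of ± 1 standard error from the edgeR fit (3 libraries per group). PHGDH and PSAT1 lie lowest at -1.72 and -1.77, the mitochondrial SHMT2, MTHFD2 and MTHFD1L lie between -0.71 and -0.91, the cytosolic SHMT1 and MTHFD1 lie nearest 0 beside MTHFD2L, and ALDH1L2 at 1.85 has the widest bar.

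Setting each mitochondrial enzyme beside the cytosolic enzyme of the same reaction within a library removes the scaling between libraries. SHMT2 over SHMT1, per kilobase, was 4.63, 4.40 and 4.32 in FTO-knockdown replicates 4, 5 and 6, against 5.79, 5.90 and 5.23 in control replicates 1, 2 and 3. MTHFD2 over MTHFD1 was 0.939, 0.882 and 0.865 in the FTO-knockdown libraries, against 1.87, 1.92 and 1.61 in the controls. Per kilobase of the longest coding transcript, MTHFD2 was thus the higher transcript in control cells and slightly the lower in FTO-knockdown cells. The order within a group depends on the transcript length used, whereas the difference between the groups does not.

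MTHFD1L over MTHFD1 was 0.465, 0.444 and 0.440 in FTO-knockdown replicates 4, 5 and 6, against 0.920, 0.993 and 0.783 in control replicates 1, 2 and 3. In these 3 pairs the groups did not overlap, and the differences of the mean log2 ratios were -0.34 for SHMT2 over SHMT1, -1.003 for MTHFD2 over MTHFD1 and -0.99 for MTHFD1L over MTHFD1. With FTO-knockdown replicate 6 alone they were -0.38, -1.05 and -1.02. MTHFD2L over MTHFD1 was 0.127, 0.142 and 0.0738 in the FTO-knockdown libraries, against 0.114, 0.131 and 0.129 in the controls. Here the groups overlapped, and the difference of -0.18 turned to 0.11 without FTO-knockdown replicate 6, while it was -0.76 with that replicate alone. The shift toward the cytosolic partner was therefore seen in every FTO-knockdown library for SHMT2, MTHFD2 and MTHFD1L, and for MTHFD2L in replicate 6 only. The pair ALDH1L2 over ALDH1L1, given above, moved the other way, by 3.05 on the log2 scale and by 1.93 in FTO-knockdown replicate 6. Its groups did not overlap, but ALDH1L2 rested on few reads. The shift was thus not shared by all mitochondrial folate enzymes.

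**Figure D3:**
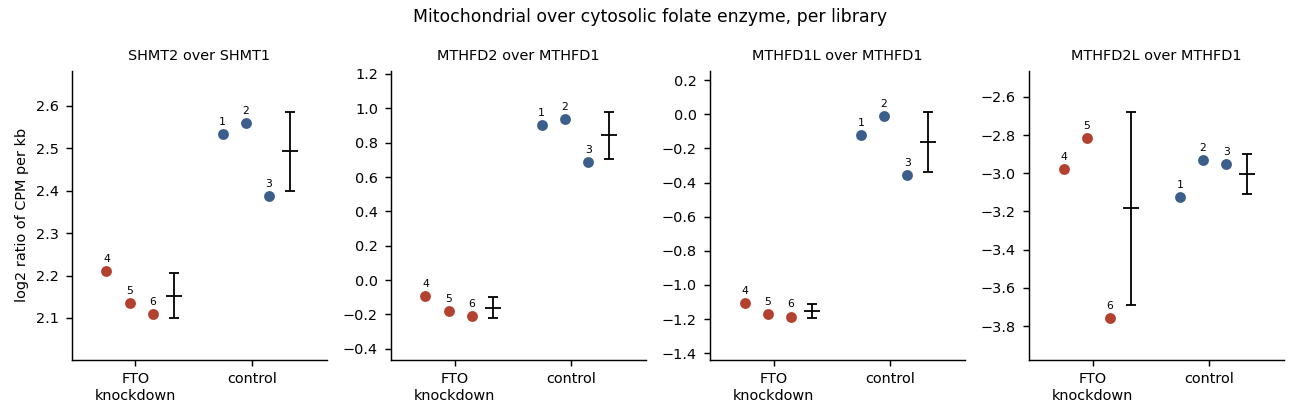
Log2 ratio of a mitochondrial folate enzyme to its cytosolic partner in each library, from CPM per kilobase of transcript, with FTO knockdown (red, replicates 4, 5 and 6) left of control (blue, replicates 1, 2 and 3) and bars for mean and SD. The vertical axes do not start at 0 and differ between panels. The groups are apart by -0.34, -1.003 and -0.99 in the first 3 panels and overlap for MTHFD2L over MTHFD1. The pair ALDH1L2 over ALDH1L1, which moved the other way, is not drawn.

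Levels of the 10 genes spanned a wide range on the CPM per kilobase scale (longest coding transcript). In FTO-knockdown cells the mean level was highest for SHMT2 (140.3 ± 4.12), then PHGDH (89.1 ± 6.18), PSAT1 (67.3 ± 5.09), MTHFD1 (38.02 ± 0.666), MTHFD2 (34.1 ± 2.05), SHMT1 (31.6 ± 2.05), PSPH (22.4 ± 0.461), MTHFD1L (17.1 ± 0.796), MTHFD2L (4.35 ± 1.37) and ALDH1L2 (0.335 ± 0.177, SD, n = 3). In control cells it was highest for PHGDH (294 ± 57.4), then SHMT2 (229.7 ± 14.4), PSAT1 (229.6 ± 11.2), MTHFD2 (64.2 ± 2.74), SHMT1 (40.8 ± 0.124), PSPH (37.98 ± 0.834), MTHFD1 (35.9 ± 3.79), MTHFD1L (32.0 ± 0.976), MTHFD2L (4.49 ± 0.566) and ALDH1L2 (0.0967 ± 0.0369, SD, n = 3). Neighbours whose mean ± SD overlapped were MTHFD2 and SHMT1 in FTO-knockdown cells. In control cells these were PHGDH and SHMT2, SHMT2 and PSAT1, PSPH and MTHFD1, and MTHFD1 and MTHFD1L. With all annotated exons as the length, PHGDH dropped to 82.6 CPM per kilobase in control cells, below PSAT1 at 229.6 and SHMT2 at 120.4, so the order at the top depends on the length used.

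Over the 6 libraries, the gene closest to PHGDH in shape was sought among 10369 genes whose average log2 CPM reached 3, by the Euclidean distance of log2 CPM after each gene's mean was subtracted. The nearest were DICER1-AS1 (distance 0.325), PSAT1 (0.338) and EIF4EBP1 (0.345). SHMT2 was nearest to IFT140 (0.0767), VIPR1 (0.0947) and LHPP (0.0959). ALDH1L2 was nearest to IGFBP6 (0.648), FOSL1 (0.674) and CALD1 (0.684), at larger distances. These distances include the difference between the groups.

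Around the 10 enzymes, 64 further genes of the pathway were taken from lists by function, and 57 passed the filter. These lists too were written with earlier results of these data known. The shares and the adjusted p-values of their genes are therefore a description only. The calls were 16 lower (28.1%) and 10 higher (17.5%), with 31 genes past neither, beside 17.9% lower and 19.5% higher of all genes tested. Their median log2 fold change was -0.11. With library totals as the only scaling 13 were lower and 15 higher, so the balance between directions depended on the scaling. With FTO-knockdown replicate 6 alone 10 were lower and 2 higher.

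In the folate cycle, 11 of 12 genes were tested, 1 was lower (ALDH1L1, above) and 2 were higher. MTRR, which reactivates methionine synthase, had 38.6, 35.5 and 34.2 CPM in FTO-knockdown libraries and 20.7, 19.8 and 25.9 CPM in control libraries (log2 fold change 0.70, SE 0.12, adjusted p = 0.00227, edgeR). MTR, methionine synthase itself, was barely past the threshold (0.36, SE 0.13, adjusted p = 0.0475, edgeR). Its call was lost when any 1 of the 6 libraries was left out (0.22 to 0.46) and after the length and GC correction (-0.006). The call of MTR was lost also with upper-quartile scaling (0.33), DESeq2 (0.35), limma voom (0.37) and FTO-knockdown replicate 6 alone (0.45). TYMS, thymidylate synthase, had 71.5, 68.1 and 68.6 CPM in FTO-knockdown libraries and 76.2, 67.6 and 87.4 CPM in control libraries. The groups overlapped and TYMS did not pass the threshold.

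Among the carriers of folate, serine and glycine, 10 of 12 genes were tested, 5 were lower and 2 higher. SLC6A9, a glycine transporter, had 9.62, 9.82 and 9.19 CPM in FTO-knockdown replicates 4, 5 and 6, against 27.4, 22.9 and 28.99 CPM in control replicates 1, 2 and 3 (log2 fold change -1.47, SE 0.12, adjusted p = 0.000113, edgeR). SLC1A4, a transporter of serine and other neutral amino acids whose promoter element is printed above, had 28.7, 25.9 and 23.2 CPM in FTO-knockdown libraries and 65.0, 61.0 and 67.2 CPM in control libraries (-1.31, SE 0.10, adjusted p = 7.1e-05, edgeR). SLC1A5, the neutral amino acid and glutamine transporter, had 253, 269 and 254 CPM in FTO-knockdown libraries and 485, 577 and 505 CPM in control libraries (-1.01, SE 0.09, adjusted p = 0.000174, edgeR). These 3 genes kept their call under every alternative run.

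FOLR1, a folate receptor, was lower with a less stable call (log2 fold change -0.52, adjusted p = 0.0141, edgeR), which was lost without control replicate 1 (-0.56), control replicate 2 (-0.38) or FTO-knockdown replicate 4 (-0.44), with FTO-knockdown replicate 6 alone (-0.29) and after the length and GC correction (-0.31). SLC25A32, the mitochondrial folate carrier, was on the contrary higher, at 36.4, 34.4 and 33.4 CPM in FTO-knockdown libraries and 26.0, 20.6 and 27.8 CPM in control libraries (0.49, SE 0.12, adjusted p = 0.0108, edgeR). The call of SLC25A32 was lost without control replicate 1 (0.51) and with FTO-knockdown replicate 6 alone (0.43). SFXN1, the mitochondrial serine carrier, had 154, 138 and 161 CPM in FTO-knockdown libraries and 138.2, 126 and 135 CPM in control libraries, which overlapped and did not pass the threshold. Its relatives went apart, SFXN2 being lower (-0.46, lost with FTO-knockdown replicate 6 alone at -0.36) and SFXN3 higher (0.41, lost without control replicate 1 at 0.42 and with FTO-knockdown replicate 6 alone at 0.27).

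In glycine cleavage and glycine handling, 7 of 8 genes were tested, 4 were lower and 3 did not pass the threshold. AMT, the aminomethyltransferase of the glycine cleavage system, had 3.25, 3.42 and 3.06 CPM in FTO-knockdown replicates 4, 5 and 6, against 7.26, 8.44 and 7.54 CPM in control replicates 1, 2 and 3 (log2 fold change -1.25, SE 0.17, adjusted p = 0.000977, edgeR). GCAT, which forms glycine from a threonine product, had 47.4, 52.6 and 56.6 CPM in FTO-knockdown libraries and 78.2, 95.9 and 80.4 CPM in control libraries (-0.70, SE 0.11, adjusted p = 0.0015, edgeR). GNMT, which methylates glycine, was lower too (-1.02), on few reads. It had 17, 18 and 29 counts in FTO-knockdown replicates 4, 5 and 6, against 35, 54 and 42 counts in control replicates 1, 2 and 3. The call of GNMT was lost without control replicate 1, 2 or 3 or FTO-knockdown replicate 4 or 5 (-1.22 to -0.84), and with FTO-knockdown replicate 6 alone (-0.485). It was lost also with DESeq2 (-1.03) and after the length and GC correction (-0.69). GCSH, the carrier protein of the system (-0.39), lost its call without control replicate 1 or 3 or FTO-knockdown replicate 4 or 5 (-0.377 to -0.305). The call of GCSH was lost also with library totals alone (-0.27) and with FTO-knockdown replicate 6 alone (-0.19). GLDC, the decarboxylase of the system, had 0 to 5 counts per library and was not tested.

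Of the genes that break down or use serine, 11 of 12 were tested, 2 were lower and 3 higher. SARS1, the cytosolic seryl-tRNA synthetase, had 317, 305 and 264 CPM in FTO-knockdown replicates 4, 5 and 6, against 631, 707 and 514 CPM in control replicates 1, 2 and 3 (log2 fold change -1.06, SE 0.12, adjusted p = 0.000546, edgeR). SPTLC1, a subunit of serine palmitoyltransferase, had 71.7, 64.7 and 65.1 CPM in FTO-knockdown libraries and 54.3, 42.9 and 49.2 CPM in control libraries (0.46, SE 0.10, adjusted p = 0.00743, edgeR). The call of SPTLC1 was lost with FTO-knockdown replicate 6 alone (0.42). SDSL, a serine dehydratase relative, was lower (-0.66), a call lost without control replicate 1, 2 or 3 or FTO-knockdown replicate 4 (-0.73 to -0.54), with library totals alone (-0.54) and after the length and GC correction (-0.37). PTDSS1, which makes phosphatidylserine, was higher as well (0.34, adjusted p = 0.014, edgeR). This call was lost without control replicate 1 (0.35) or FTO-knockdown replicate 4 (0.35). It was lost also with FTO-knockdown replicate 6 alone (0.39) and after the length and GC correction (0.115).

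SPTLC3, another subunit, differed among the FTO-knockdown libraries. It had 9.69, 10.8 and 0.583 CPM in FTO-knockdown replicates 4, 5 and 6, against 0.372, 0.871 and 0.310 CPM in control replicates 1, 2 and 3. The fitted log2 fold change was 3.76 (SE 0.86, adjusted p = 0.00766, edgeR), but 0.18 with FTO-knockdown replicate 6 alone, where the call was lost. The call was lost also without control replicate 1, 2 or 3 (3.44 to 4.36) and with limma voom (3.09). SPTLC3 was not tested under the filter of 10 counts in every library. BHMT2, a methyltransferase of the methionine cycle that the filter removed, showed the same libraries, with 41, 59 and 0 counts in FTO-knockdown replicates 4, 5 and 6, against 0, 3 and 0 counts in control replicates 1, 2 and 3. The mesenchymal markers were high in the same replicates 4 and 5, and their part in these values was not tested.

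In the methionine cycle, 6 of 8 genes were tested, 1 was lower and 1 higher. AHCY, which hydrolyses S-adenosylhomocysteine, had 433, 464 and 460 CPM in FTO-knockdown libraries and 580, 644 and 591 CPM in control libraries (log2 fold change -0.42, SE 0.08, adjusted p = 0.00398, edgeR). The call of AHCY was lost with FTO-knockdown replicate 6 alone (-0.39). AHCYL2, a related protein, was higher (0.47, adjusted p = 0.0182, edgeR), and the call was lost without control replicate 1, 2 or 3 or FTO-knockdown replicate 4 (0.35 to 0.53) and after the length and GC correction (0.245). SLC1A4, SLC1A5 and AHCYL2 each have the element in only 1 of their promoter windows, and MTHFD1L lacks it in 1 of its windows. Of the genes whose element is printed above, MTHFD1L, SLC1A4 and SLC1A5 were lower, and AHCYL2, with its less stable call, was higher. The part of the element in these values was not tested.

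Purine synthesis, which takes up one-carbon units, had 12 of 12 genes tested, with 3 lower and 2 higher. IMPDH2, the main inosine monophosphate dehydrogenase, had 421, 447 and 414 CPM in FTO-knockdown replicates 4, 5 and 6, against 731, 844 and 716 CPM in control replicates 1, 2 and 3 (log2 fold change -0.84, SE 0.09, adjusted p = 0.000432, edgeR). ATIC, the bifunctional last enzyme that uses 10-formyltetrahydrofolate, had 208, 203 and 216 CPM in FTO-knockdown libraries and 258, 286 and 260 CPM in control libraries (-0.36, SE 0.08, adjusted p = 0.00815, edgeR). The call of ATIC was lost with FTO-knockdown replicate 6 alone (-0.31). GART, the other enzyme of the route that takes 10-formyltetrahydrofolate, had 211, 188 and 217 CPM in FTO-knockdown libraries and 217, 194 and 221 CPM in control libraries, and did not pass the threshold. PRPS1 (0.30), which makes the ribose donor, was higher. This call was lost without control replicate 1 or 3 or FTO-knockdown replicate 4 (0.27 to 0.30), and with FTO-knockdown replicate 6 alone (0.246). ADSS2 (0.35), of the adenine branch, was higher, a call lost without control replicate 1 or 2 or FTO-knockdown replicate 4 or 5 (0.27 to 0.35). It was lost also with FTO-knockdown replicate 6 alone (0.36) and after the length and GC correction (0.255). ADSL (-0.25), adenylosuccinate lyase, was lower, a call lost without control replicate 1, 2 or 3 or FTO-knockdown replicate 4 or 5 (-0.28 to -0.21). It was lost also with library totals alone (-0.125), without the filter (-0.244) and with FTO-knockdown replicate 6 alone (-0.212).

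**Figure D4:**
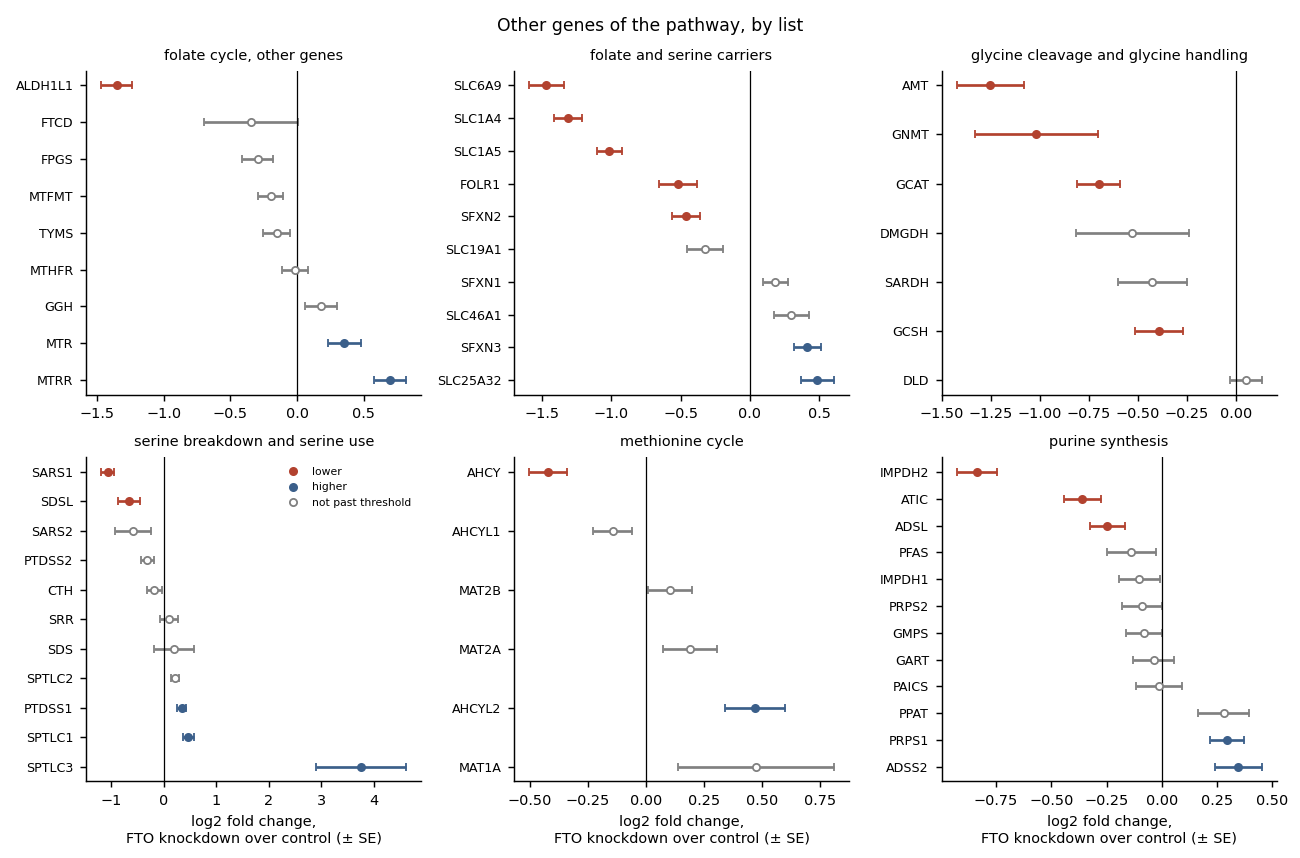
Log2 fold change, FTO knockdown over control, of 55 of the 57 tested pathway genes outside the 10 enzymes, by list, with bars of ± 1 standard error from the edgeR fit (3 libraries per group). Red points are lower, blue points higher and open points not past the threshold, with 16 lower and 10 higher in all. The horizontal axes differ between panels, and SPTLC3 at 3.76 was high in FTO-knockdown replicates 4 and 5 only.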

How the data were processed

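RNA-seq counts of reads per gene, which the authors deposited per sample without normalization, were used as they stand. According to the notes of the submitters, TopHat2 2.0.11 and HTSeq were used, with hg19 and GRCh37 named as builds. For HTSeq no version, annotation or strand setting is given in these notes or the methods. Samples were grouped by label. The enzyme genes, the lists and the rule for naming genes (all 10 enzymes, up to 4 list members per direction past the threshold and up to 2 others, not all printed or drawn) were chosen with earlier results of these data known.

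Genes were kept by filterByExpr (minimum count 10, minimum total 15), scaled by TMM and fitted with the quasi-likelihood test of edgeR 4.0.16 (R 4.3.3), two-sided, adjusted by Benjamini-Hochberg over 14965 genes at 0.05. A standard error is the log2 fold change divided by the root of F. CPM use TMM library sizes, marker sums use library totals. Symbols matched 56321 of the gene IDs (93.1%), and positions and lengths were looked up in GENCODE 29 (GRCh38) through the ID, so the build of the counting is not settled. The 37 mitochondrially encoded genes were at 0 in all libraries. Every pair of replicates differed beyond sampling noise (chi-square per degree of freedom 3.80 to 25.4). Alternatives were other scalings and filters, DESeq2 1.42.0, limma 3.58.1 voom, leaving out libraries, a length and GC correction and a threshold of 0.01.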

Additional observations from a re-analysis of the deposited data

How the results depend on the processing

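For the 7 lower enzyme genes, 104 of 105 alternative values kept direction and call, the exception being SHMT1 with FTO-knockdown replicate 6 alone (-0.29), where the single library is assumed to vary like the controls. The count of higher enzyme genes, 1 (ALDH1L2), was 0 with a minimum of 10 counts per library, with replicate 6 alone and at a threshold of 0.01, and 0 to 1 when single libraries were left out. ALDH1L2 was not tested under the filter of 10 counts in every library. The fold change of MTHFD2L turned to 0.072 with library totals alone and ranged from -0.22 to 0.17 without single libraries. That of MTHFD1 turned to -0.21 after the length and GC correction. Among pathway genes, MTR was -0.006 and SFXN1 -0.012 after that correction, GART 0.081 with library totals alone, 0.045 with replicate 6 alone and -0.093 to 0.024 without single libraries. FTO was -0.46 with library totals alone, -0.94 after the length and GC correction, -0.83 with replicate 6 alone and -0.74 to -0.47 without single libraries. Of the 28 alternative values for mitochondrial minus cytosolic differences, 26 changed by less than the spread. MTHFD2L minus MTHFD1 was -0.76 with FTO-knockdown replicate 6 alone and ranged from -0.37 to 0.11 without single libraries. The other pathway genes counted 13 lower and 15 higher with library totals alone, 10 lower with replicate 6 alone, and 2 (replicate 6 alone), 6 (length and GC correction) and 4 (threshold 0.01) higher, and 2 to 10 higher without single libraries. Library totals alone moved the median of all genes to 0.13, with 69.6% of calls higher, and the length and GC correction gave 41.4%, beside 52.0%. No paired analysis was possible because the groups share no replicate numbers. ALDH1L2, GNMT, AMT and MTHFD2L had few reads, as did SPTLC3 in the controls, which limits their precision. The causes were not tested.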
